A study of Mus musculus with 6 samples.

Results

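The integrin and tetraspanin genes were followed in the transcriptome of mast cells grown from the bone marrow (BMMCs) of mice of the BALB/c and C57BL/6 strains. Members were chosen by a rule on gene symbols, with earlier results of these data known. The integrin alpha subunits were Itga2b and Itga with a number or one of the letters d, e, l, m, v and x. The integrin beta subunits were Itgb1 to Itgb8. The tetraspanins were the numbered Tspan genes and those that carry CD names (Cd9, Cd37, Cd53, Cd63, Cd81, Cd82 and Cd151). Of 35297 genes in the deposited tables, 53 met this rule, 18 of them integrin alpha genes, 8 integrin beta genes, 20 Tspan genes and 7 tetraspanins with CD names. Marrow of naive wild type mice of both strains had been cultured with stem cell factor, TGF-β1, IL-9 and IL-3, and RNA was taken on day 20. Libraries S9, S10 and S11 came from BALB/c and libraries S12, S13 and S14 from C57BL/6 cultures, which the study calls biological replicates. Whether each culture came from its own mouse is not given in the sources used here, so p-values measure the spread between these libraries. The labels give no transgene or deletion for either strain, and the age and sex of the marrow donors were not given in the sources used here.

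Integrins are receptors for extracellular matrix and for ligands on other cells, and each is built from one alpha and one beta subunit, so the pairing decides what the receptor binds. Mast cells use them to home to tissues, to lodge in epithelium and matrix, and to adhere once activated. Tetraspanins are small proteins that cross the membrane 4 times and gather integrins, immunoglobulin superfamily proteins and proteases into membrane domains. In mast cells CD63 lies in the membrane of secretory granules and reaches the cell surface on degranulation.

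The stretch of 250 bases upstream of the annotated start is printed for 6 members, namely the called genes described below that have a single start in the table used, and 3 of the most abundant members. Sequences were taken from RefSeq on build GRCm38.p6, whose table held 56 start sites for 44 of the 53 members, among them a single one for each of these 6 genes. They read 5′ to 3′ on the strand of the gene, with capitals marking the letters of the motifs searched on both strands. The first 3 belong to genes that were more than 2-fold higher in C57BL/6 BMMCs, Tspan8 (chr10:115817034-115817283, forward strand), Itgax (chr7:128129300-128129549, forward strand) and Cd9 (chr6:125494761-125495010, reverse strand). The others belong to abundant members, Itga2b (chr11:102469884-102470133, reverse strand), Itgb7 (chr15:102231936-102232185, reverse strand) and Cd63 (chr10:128909095-128909344, forward strand).
Tspan8: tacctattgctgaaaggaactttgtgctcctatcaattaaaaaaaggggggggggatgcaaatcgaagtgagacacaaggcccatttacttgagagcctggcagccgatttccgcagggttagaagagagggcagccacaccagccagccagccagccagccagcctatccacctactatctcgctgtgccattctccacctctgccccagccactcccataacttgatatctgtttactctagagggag
Itgax: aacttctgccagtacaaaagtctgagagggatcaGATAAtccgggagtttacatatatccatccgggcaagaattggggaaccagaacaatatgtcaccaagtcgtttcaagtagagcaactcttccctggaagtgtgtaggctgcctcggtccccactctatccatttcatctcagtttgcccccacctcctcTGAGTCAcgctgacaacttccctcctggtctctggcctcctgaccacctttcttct
Cd9: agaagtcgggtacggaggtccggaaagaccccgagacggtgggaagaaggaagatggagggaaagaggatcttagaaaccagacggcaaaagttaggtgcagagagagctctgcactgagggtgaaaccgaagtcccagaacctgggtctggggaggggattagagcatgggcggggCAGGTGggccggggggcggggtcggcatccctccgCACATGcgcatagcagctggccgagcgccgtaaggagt
Itga2b: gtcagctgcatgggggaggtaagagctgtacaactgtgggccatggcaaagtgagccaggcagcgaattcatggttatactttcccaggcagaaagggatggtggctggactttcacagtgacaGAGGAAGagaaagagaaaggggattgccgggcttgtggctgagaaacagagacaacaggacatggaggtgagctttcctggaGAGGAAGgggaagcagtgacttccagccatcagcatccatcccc
Itgb7: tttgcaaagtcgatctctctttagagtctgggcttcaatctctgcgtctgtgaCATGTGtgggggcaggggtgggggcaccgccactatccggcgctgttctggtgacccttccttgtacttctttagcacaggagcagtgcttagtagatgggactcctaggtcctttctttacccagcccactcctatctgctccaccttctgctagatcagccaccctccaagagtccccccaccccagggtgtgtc
Cd63: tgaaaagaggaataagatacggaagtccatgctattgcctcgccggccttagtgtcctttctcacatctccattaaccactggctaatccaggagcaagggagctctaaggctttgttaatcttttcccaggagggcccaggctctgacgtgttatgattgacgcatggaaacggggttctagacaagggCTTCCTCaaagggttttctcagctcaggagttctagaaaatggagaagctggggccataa

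The motifs searched were GATAA for GATA factors, CANGTG for the E-box of the MITF family, GAGGAAG for PU.1, TGANTCA for AP-1, TTCNNNGAA for STAT factors and TGTGGT for RUNX factors. Among all 32851 upstream windows of this length, 22.6% held the GATA letters, 39.5% the E-box, 10.6% the PU.1 letters, 6.75% the AP-1 letters, 7.02% the STAT letters, and 4614 of them held the RUNX letters. The Tspan8 window held none of them. The Itgax window held GATAA beginning 216 bases and TGAGTCA beginning 56 bases before the start. Cd9 had 2 E-boxes, CAGGTG at 73 and CACATG at 38 bases before the start. Itga2b held the PU.1 letters 2 times, at 126 and at 44 bases before the start, Cd63 held them once on the opposite strand, at 60 bases, and Itgb7 held the E-box CATGTG at 197 bases. Such matches describe the letters of these windows and were not set against binding data.

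Between 28273365 and 37100869 reads per library were assigned to genes. Strain differences were tested across 12461 genes with edgeR's quasi-likelihood fit, and are given as log2 fold changes, positive where C57BL/6 was higher, with its standard error (SE). A gene was called different at a Benjamini-Hochberg adjusted p under 0.05 together with a fold change above 2. CPM, a gene's reads relative to the library total, were scaled to library sizes after TMM correction and serve to compare strains, while TPM, which divides reads by transcript length, serves to compare genes. Of the 53 members, 32 had enough reads to be tested. Of these 32, 7 were called (21.9%), beside 13.3% of all genes tested. Those higher in C57BL/6 BMMCs were Tspan8, Tspan9, Itga6, Itgax, Itgal, Itgb2 and Cd9, so that 21.9% of the tested members were higher in that strain, beside 7.73% of all genes. That background rested on 963 calls toward C57BL/6 against 690 toward BALB/c, a split that became 838 against 829 with plain library sizes and 538 and 548 in limma on log2(TPM + 0.1). Reads of both strains were assigned to the same set of transcripts, and whether the reads of each strain matched it equally well was not tested. No member was called higher in BALB/c by edgeR with its filter on low counts or by either DESeq2 fit, beside 5.54% of all genes, whereas edgeR without that filter called 1, Itga9. With the filter, 1 member had an unadjusted p under 0.05 in that direction. With the adjusted p alone, 17 members were higher in C57BL/6 cells and 1 was lower there, together 56.2% of those tested, beside 52.9% of all genes, of which 27.0% were higher in C57BL/6. At that looser criterion the members' share lay near that of all genes, and the split moved from 17 and 1 to 15 and 5 with plain library sizes and to 13 and 4 of the 24 members that passed the level filter of limma on either TPM scale. The CPM of the strains did not overlap for 22 of the 32 members, beside 61.9% of all genes tested. The median log2 fold change was 0.33 over the tested members and -0.01 over all genes. The list itself, chosen with earlier results of these data known, was not tested against other genes.

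**Figure D1:**
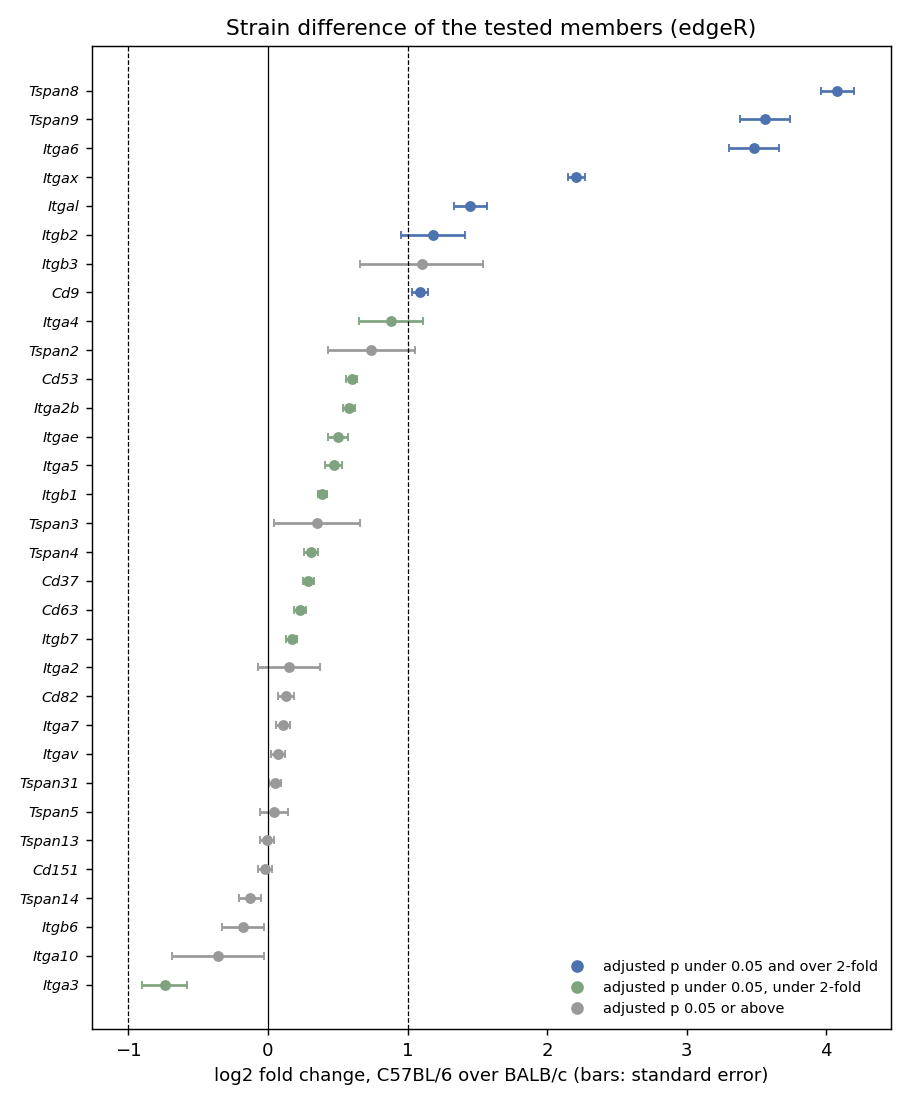
Log2 fold change between strains (C57BL/6 relative to BALB/c) for the 32 tested integrin and tetraspanin genes, one row per gene, with the standard error as bars and dashed lines at a 2-fold change. Tspan8, Tspan9, Itga6, Itgax, Itgal, Itgb2 and Cd9 (blue) lie to the right of the upper line with an adjusted p under 0.05, and no member lies beyond the lower line.

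Tspan8, a tetraspanin known from epithelial cells, extracellular vesicles and cell motility, showed the largest log2 fold change among the 32 tested members. It stood at 2.42, 1.74 and 2.13 CPM in BALB/c libraries S9 to S11 and at 36.2, 38.7 and 32.3 CPM in C57BL/6 libraries S12 to S14. Every C57BL/6 library was therefore far above every BALB/c library, with means of 2.10 ± 0.338 and 35.7 ± 3.26 CPM (SD, n = 3 per strain). The mean was 17.04-fold higher in C57BL/6, with 4.08 on the log2 scale (SE 0.12, edgeR adjusted p = 1.42e-08). On the TPM scale the level rose from 2.45 ± 0.415 to 37.8 ± 3.38, which brought Tspan8 above Cd151 and Cd82 in C57BL/6 cells only. Tspan8 shares no word of 31 bases with another annotated gene.

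Tspan9, a tetraspanin known from platelets and megakaryocytes, was close to the lower limit of the test in BALB/c cells. Its levels were 0.911, 1.04 and 0.825 CPM in the BALB/c libraries, from 29 to 31 reads each, and 9.17, 10.4 and 12.99 CPM in the C57BL/6 libraries, from 281 to 460 reads each. The strains did not overlap, and the C57BL/6 mean was 11.7-fold higher, 3.56 on the log2 scale (SE 0.18, edgeR adjusted p = 4.42e-07). Even in C57BL/6 BMMCs it reached no more than 3.61 ± 0.653 TPM, close to Tspan5 at 2.96 ± 0.368 TPM.

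Cd9, a tetraspanin that associates with integrins and is found on many blood cells, had the smallest of the called differences but by far the highest level among these 7 genes. It measured 92.9, 86.5 and 81.2 CPM in BALB/c against 177, 187 and 191 CPM in C57BL/6 libraries. Its means, 86.9 ± 5.85 and 185 ± 7.19 CPM, differed 2.13-fold, 1.09 on the log2 scale (SE 0.06, edgeR adjusted p = 4.99e-07). This value lay at the 2-fold limit. It was 0.95 with plain library sizes and 0.91 on both log2(TPM + 1) and log2(TPM + 0.1), each with an adjusted p under 0.05, and Cd9 did not pass a test against a 2-fold change. Within the tetraspanins other than Cd63, Cd9 made up 14.6 ± 0.732% of TPM in BALB/c and 22.2 ± 0.630% in C57BL/6 cells.

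Itga6 encodes the alpha 6 subunit, which pairs with beta 1 or beta 4 to bind laminins. Its levels were 1.41, 1.01 and 1.06 CPM in BALB/c libraries against 11.1, 12.1 and 15.6 CPM in C57BL/6 libraries. The lowest C57BL/6 library lay well above the highest BALB/c library, and the means differed 11.2-fold, 3.48 on the log2 scale (SE 0.18, edgeR adjusted p = 6.09e-07). Of its possible partners, Itgb4 had at most 2 reads in any library, whereas Itgb1 was abundant, at 47.04 ± 0.909 TPM in BALB/c and 54.7 ± 0.803 TPM in C57BL/6 cells. In C57BL/6 cells Itga6 itself reached 2.77 ± 0.521 TPM.

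The alpha subunits of the leukocyte integrins, which pair with beta 2 and bind ICAMs and complement fragments, fell into 2 expressed and 2 nearly silent genes. Itgax, which encodes CD11c, measured 7.63, 8.15 and 8.46 CPM in BALB/c against 38.8, 36.8 and 36.98 CPM in C57BL/6 libraries. The replicates of a strain lay close together and the strains far apart, at 8.08 ± 0.418 against 37.5 ± 1.09 CPM, 2.21 on the log2 scale (SE 0.06, edgeR adjusted p = 1.32e-08). Itgal, which encodes the alpha chain of LFA-1, measured 11.7, 9.70 and 8.51 CPM in BALB/c against 24.6, 27.3 and 29.7 CPM in C57BL/6 libraries, again without overlap. Its log2 fold change was 1.45 (SE 0.12, edgeR adjusted p = 9.46e-06). Itgam, the CD11b chain, had between 0 and 5 reads in a library, and Itgad between 0 and 6, and neither was tested.

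Itgb2, the beta chain that all 4 of these alpha subunits require, was higher in C57BL/6 cells as well, though at a very low level. The reads were 16, 16 and 16 in the BALB/c libraries against 36, 31 and 37 in the C57BL/6 libraries. These correspond to 0.488 ± 0.0570 and 1.11 ± 0.0534 CPM, 1.18 on the log2 scale (SE 0.23, edgeR adjusted p = 0.00234). Itgb2 did not pass a test against a 2-fold change, and it fell below the level filter on the TPM scale. The summed TPM of the beta 2 partners Itgal, Itgam, Itgax and Itgad was 22.3 ± 3.15 times that of Itgb2 in BALB/c against 36.3 ± 4.26 times in C57BL/6 cells. Deposited transcripts whose names matched no gene took 2.69% to 3.12% of each library, and whether some belong to Itgb2 or another low member was not tested.

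**Figure D2:**
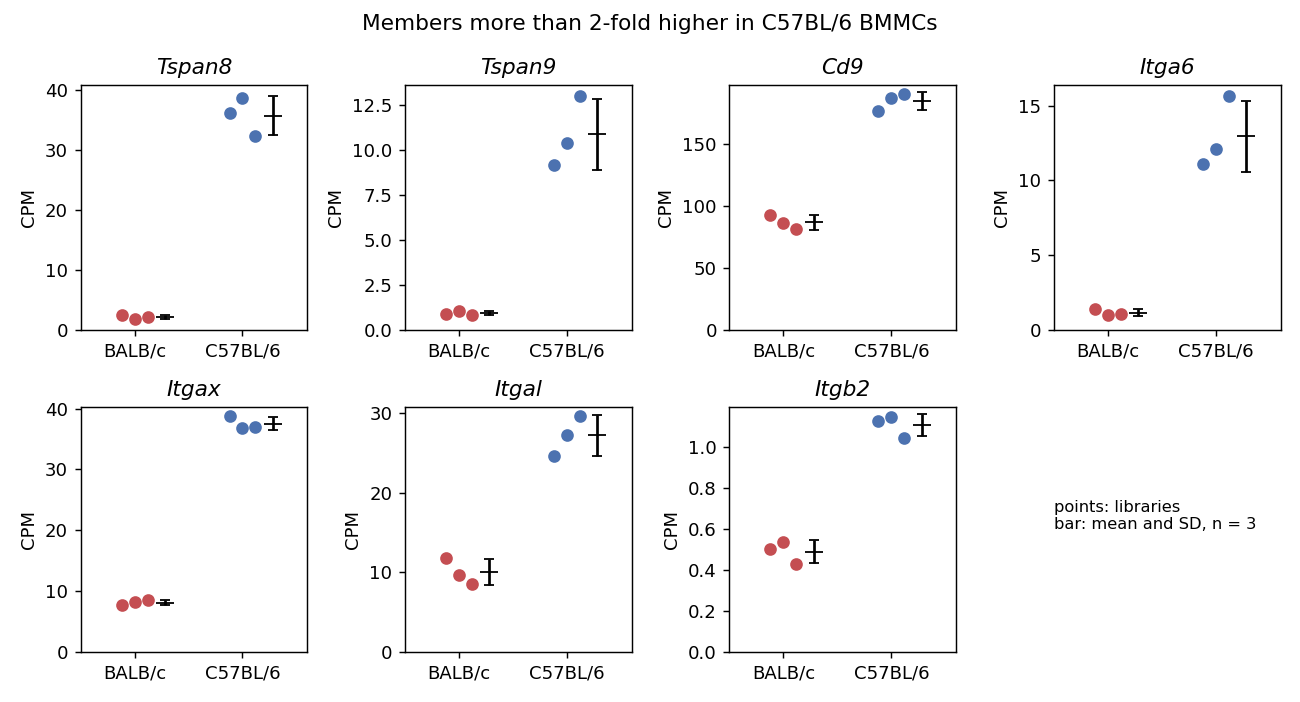
CPM of the 7 called members in each library, with a linear axis from 0 for every gene, points for the libraries of BALB/c (red) and C57BL/6 (blue), and the mean with SD beside them. In each panel the 3 C57BL/6 libraries lie above the 3 BALB/c libraries, from 17.04-fold for Tspan8 to 2.13-fold for Cd9 between the means.

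These 7 genes were not the ones that set the overall level of either family. With 17 members at a mean of at least 10 TPM in one strain, only Tspan8, Itgax and Cd9 of the called genes were among them. A further 7 members lay between 1 and 10 TPM in their higher strain, and 29 stayed below 1 TPM in both. The order of levels was led by Cd63, Itga2b, Itgae and Itgb7 in both strains.

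**Figure D3:**
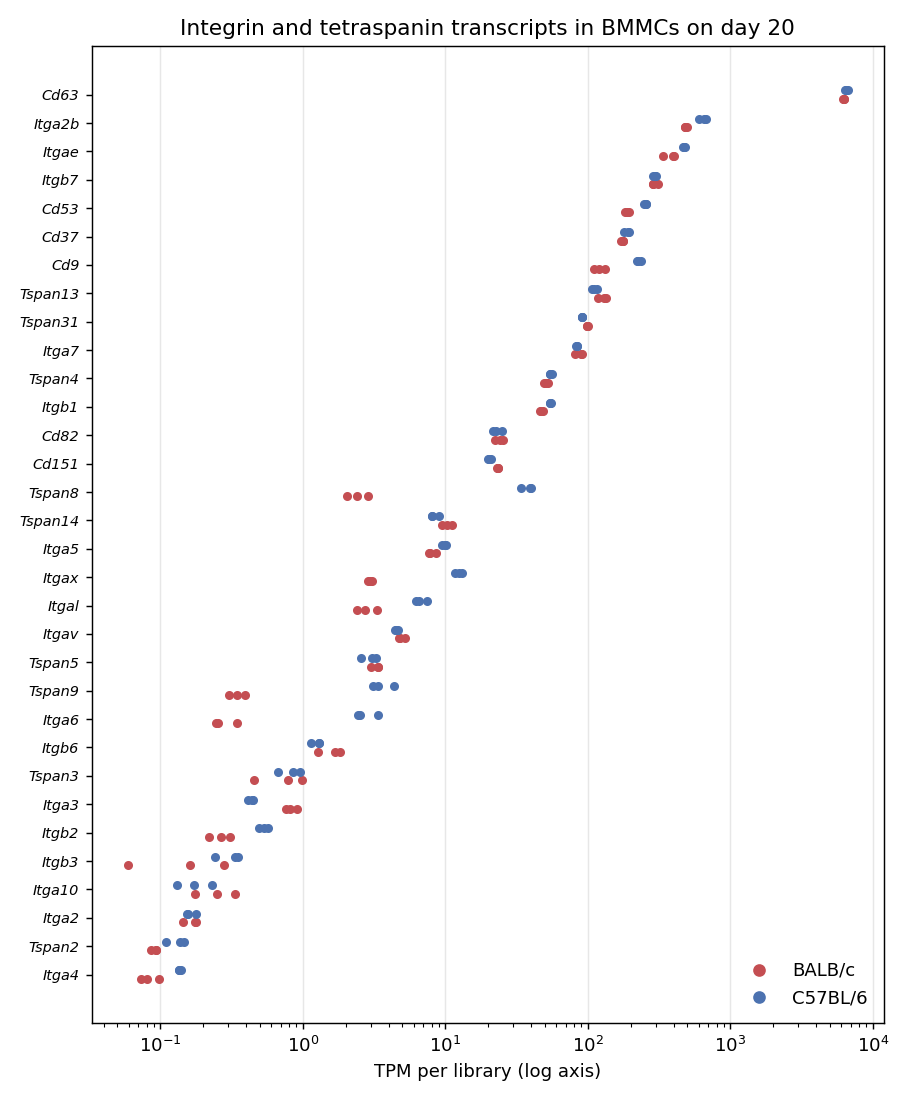
TPM in each library (logarithmic axis) for the 32 tested members, ordered by their mean, with BALB/c libraries in red and C57BL/6 libraries in blue. Cd63 lies between 6215 and 6664 TPM, and the points of the strains part most widely for Tspan8, Tspan9, Itga6 and Itgax.

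Among the abundant alpha subunits, Itga2b and Itgae were higher in C57BL/6 BMMCs by less than 2-fold. Itga2b, which encodes CD41, the alpha chain of the platelet fibrinogen receptor, measured 1088, 1112 and 1163 CPM in BALB/c against 1713, 1617 and 1709 CPM in C57BL/6 libraries. The strains did not overlap, and the log2 fold change was 0.58 (SE 0.04, edgeR adjusted p = 2.88e-06). Itgae, which encodes CD103, the partner of beta 7 that binds E-cadherin on epithelium, measured 1012, 869 and 1067 CPM in BALB/c against 1386, 1395 and 1391 CPM in C57BL/6 libraries. Library S10 was the lowest, the C57BL/6 libraries were nearly equal, and the log2 fold change was 0.50 (SE 0.07, edgeR adjusted p = 0.000213). The Itgae value was 0.33 in limma on either TPM scale, where it passed as well. Together Itga2b and Itgae made up 88.9 ± 0.1495% of the alpha subunit TPM in BALB/c and 90.3 ± 0.272% in C57BL/6 cells. Itga7, an alpha subunit for laminin best known from muscle, followed at 87.3 ± 5.60 and 83.4 ± 0.210 TPM. It measured 246, 223 and 258 CPM in BALB/c against 256.1, 268 and 259.6 CPM in C57BL/6 libraries, which overlapped (log2 fold change 0.11, adjusted p = 0.12 in edgeR). The Itga7 value was 0.05 without library S10 (adjusted p = 0.376) and 0.15 without library S11 (adjusted p = 0.0336).

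The beta subunits were dominated by Itgb7, the mast cell homing receptor chain that pairs with alpha E and alpha 4. It measured 502, 545 and 512 CPM in BALB/c against 585, 583 and 590.5 CPM in C57BL/6 libraries. This small difference, 0.17 on the log2 scale (SE 0.04, edgeR adjusted p = 0.00505), was -0.0033 on log2(TPM + 1) (adjusted p = 0.95 in limma), with levels of 295 ± 12.9 and 294 ± 7.99 TPM. Itgb1, the partner of most alpha subunits for matrix, measured 135, 132 and 134 CPM in BALB/c against 175, 178 and 175 CPM in C57BL/6 libraries, with 0.39 on the log2 scale (SE 0.03, edgeR adjusted p = 1.43e-05). Its direction held on every scale, with values between 0.21 and 0.40. Itgb7 made up 85.7 ± 0.672% of the beta subunit TPM in BALB/c and 83.8 ± 0.215% in C57BL/6 cells.

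Among transcripts matched to genes, the alpha and beta subunits were thus far from equal in TPM. Reads on unmatched transcripts are left out of the sums below, and whether some belong to Itgb3 or another subunit was not tested. Alpha subunits summed to 971 ± 46.8 TPM in BALB/c and 1238 ± 47.0 TPM in C57BL/6 cells, and beta subunits to 344 ± 12.5 and 351 ± 8.71 TPM. The ratio of alpha to beta was 2.90, 2.57 and 3.02 in the BALB/c libraries against 3.57, 3.48 and 3.55 in the C57BL/6 libraries, which did not overlap. Much of the excess came from Itga2b, whose known partner Itgb3 had between 9 and 35 reads in a BALB/c library and between 34 and 53 in a C57BL/6 library. The Itgb3 levels were 1.10, 0.637 and 0.239 CPM in BALB/c against 1.06, 1.63 and 1.497 CPM in C57BL/6 cells. They overlapped between the strains, and the log2 fold change of 1.10 (standard error 0.44) did not pass (adjusted p = 0.0615 in edgeR). Without library S9 it passed both criteria. Itgae alone exceeded Itgb7 in every library, by a ratio of 1.29 ± 0.179 in BALB/c against 1.61 ± 0.0124 in C57BL/6 cells. For Itgb1 the summed TPM of its alpha partners was 2.17 ± 0.112 times the Itgb1 level in BALB/c and 1.86 ± 0.0242 times in C57BL/6 cells.

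**Figure D4:**
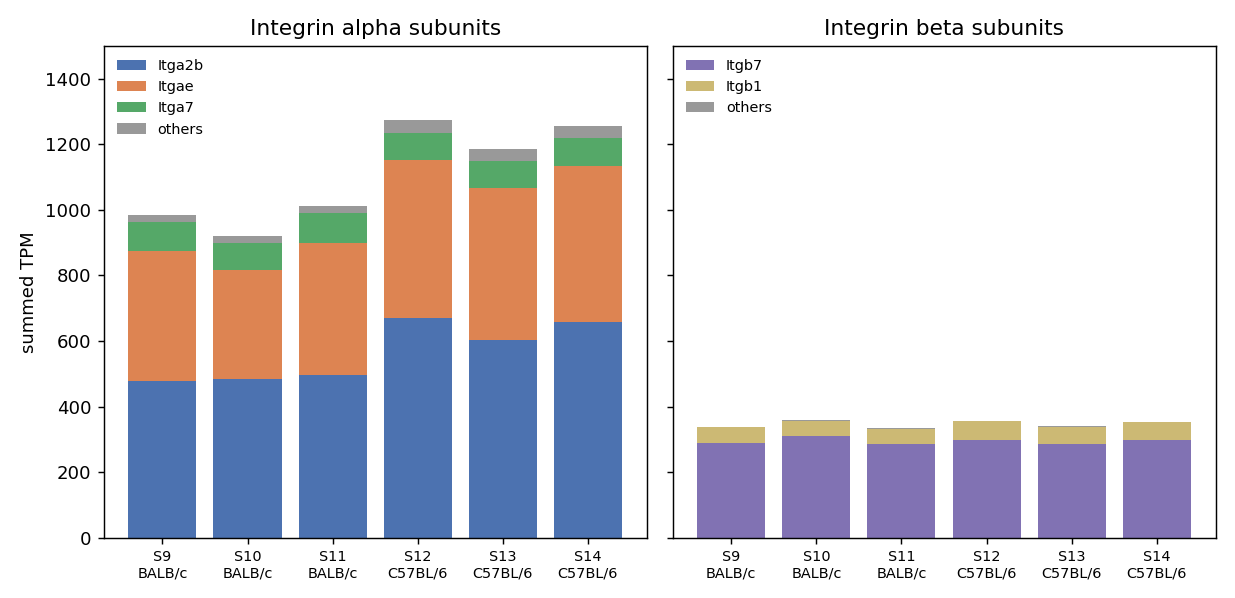
Summed TPM of integrin alpha subunits (left) and beta subunits (right) in each library, stacked by gene on a shared axis from 0. The alpha bars reach between 919.5 and 1273 TPM and consist mostly of Itga2b and Itgae, while the beta bars stay between 334.5 and 358 TPM and consist mostly of Itgb7.

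Other alpha subunits were expressed at lower levels. Itga5, the fibronectin receptor chain, rose from 24.03 ± 1.55 to 33.3 ± 0.747 CPM, 0.47 on the log2 scale (SE 0.06, edgeR adjusted p = 0.000137). Itga3, another laminin receptor chain, was the sole member with a lower level in C57BL/6 cells at this adjusted p, with 2.89, 2.68 and 2.50 CPM in BALB/c against 1.502, 1.70 and 1.64 CPM in C57BL/6 libraries. The strains did not overlap, and its log2 fold change was -0.74 (SE 0.16, edgeR adjusted p = 0.00339). Itgav, the alpha chain of vitronectin receptors, did not pass the test, at 24.1 ± 0.875 and 25.3 ± 0.160 CPM (log2 fold change 0.07, adjusted p = 0.3 in edgeR). Itga4, which pairs with beta 1 or beta 7 to bind VCAM-1, had only 15 to 21 reads in a BALB/c library and 29 to 37 in a C57BL/6 library, at 0.0839 ± 0.0124 and 0.137 ± 0.00300 TPM. Its log2 fold change was 0.88 (SE 0.23, edgeR adjusted p = 0.0102). Further Itga4 reads on unmatched transcripts were not looked for. Itga2, which encodes CD49b, stayed at 0.166 ± 0.0189 and 0.163 ± 0.0138 TPM, and Itga10 and the epithelial beta chain Itgb6 did not pass the test either, with log2 fold changes of -0.36 and -0.18.

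Among the tetraspanins Cd63 was in a class of its own. It measured 3100, 3196 and 3242 CPM in BALB/c against 3652, 3913 and 3657 CPM in C57BL/6 libraries, which did not overlap, and made up 88.4 ± 0.429% of the tetraspanin TPM in BALB/c and 86.4 ± 0.396% in C57BL/6 cells. The log2 fold change of Cd63 was 0.23 (standard error 0.04, adjusted p = 0.0007 in edgeR), but 0.09 with plain library sizes (adjusted p = 0.0515 in edgeR) and 0.05 on either TPM scale (adjusted p of 0.246 and 0.244 in limma). Cd53, a tetraspanin of leukocytes, measured 359, 351 and 342 CPM in BALB/c against 529, 548 and 521 CPM in C57BL/6 libraries. Its difference, 0.60 on the log2 scale (SE 0.04, edgeR adjusted p = 1.64e-06), stayed between 0.42 and 0.62 in all alternatives. Cd37, another tetraspanin of leukocytes, measured 133, 136 and 133 CPM in BALB/c against 164, 161 and 167 CPM in C57BL/6 libraries, or 0.29 on the log2 scale (adjusted p = 0.000119 in edgeR). Tspan4, known from migrasomes, measured 41.6, 40.1 and 43.8 CPM in BALB/c against 50.01, 52.97 and 53.2 CPM in C57BL/6 libraries, or 0.31 on the log2 scale (adjusted p = 0.000527 in edgeR). Neither gene overlapped between the strains. With plain library sizes these values were 0.15 for Cd37 and 0.17 for Tspan4, and in limma on either TPM scale 0.11 for both, each with an adjusted p under 0.05.

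Several tetraspanins at a middle level did not pass the test. Tspan13 measured 157, 166 and 148 CPM in BALB/c against 159, 154 and 154 CPM in C57BL/6 libraries, and the strains overlapped. Tspan31 measured 95.5, 95.3 and 96.2 CPM in BALB/c against 97.1, 102 and 99 CPM in C57BL/6 libraries, which did not overlap but lay close together. Cd151, a close partner of laminin-binding integrins, measured 26.4, 27.5 and 27.8 CPM in BALB/c against 25.7, 27.4 and 27.7 CPM in C57BL/6 libraries. Its levels overlapped, whereas those of Cd82, a tetraspanin known as a suppressor of metastasis, did not. Cd82 measured 27.4, 28.4 and 26.5 CPM in BALB/c against 29.1, 28.7 and 31.9 CPM in C57BL/6 libraries. Tspan14 and Tspan5 belong to the group that escorts the protease ADAM10. Tspan14 measured 18.7, 17.4 and 16.5 CPM in BALB/c against 15.2, 15.7 and 17.1 CPM in C57BL/6 libraries. The log2 fold changes were -0.01 for Tspan13, 0.05 for Tspan31, -0.02 for Cd151, 0.13 for Cd82, -0.13 for Tspan14, 0.04 for Tspan5 and 0.35 for Tspan3, with adjusted p between 0.101 and 0.839 in edgeR. For Tspan13, Tspan31, Cd151 and Tspan14 the direction or the call depended on the scale. With plain library sizes, which moved the median of all genes by -0.14, they became lower in C57BL/6 with an adjusted p under 0.05, at log2 fold changes of -0.16, -0.09, -0.16 and -0.28.

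The remaining 21 members had too few reads for a test, with at most 10 reads in any library. Of these, 9 had no read at all, namely Itga8, Itga11, Itgb8, Tspan1, Tspan7, Tspan10, Tspan11, Tspan12 and Tspan18. The others were Itga1, Itga9, Itgad, Itgam, Itgb4, Itgb5, Cd81, Tspan6, Tspan15, Tspan17, Tspan32 and Tspan33. Cd81, a widely expressed tetraspanin, had read counts of 0, 0 and 1 in BALB/c libraries against 3, 6 and 8 in the C57BL/6 libraries. Whether unmatched transcripts hold further reads of Cd81 or of the other untested members was not tested. Itga9, whose product binds tenascin and VCAM-1, had read counts of 3, 3 and 5 in BALB/c libraries and none in C57BL/6 libraries. In the test without a filter on low counts, Cd81, Itgb3 and Itga9 were called as well, the first 2 higher in C57BL/6 and Itga9 higher in BALB/c. Of the tested members, Tspan2 passed the filter through the C57BL/6 libraries alone, and its log2 fold change of 0.74 did not pass (adjusted p = 0.0733 in edgeR).

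Transcript variants were compared in the 7 members with at least 1 TPM in every library and at least 2 transcripts that each reached 10% of the gene's TPM in some library. The share of the main transcript differed without overlap in Tspan8 and Tspan4. For Tspan8 the transcript of 1416 bases held 45.5%, 48.5% and 55.2% of the TPM in BALB/c libraries against 25.2%, 22.9% and 29.2% in C57BL/6 libraries. The transcript of 1225 bases held 38.6%, 36.2% and 31.4% in the C57BL/6 libraries, and 21.02%, 23.5% and 0% in the BALB/c libraries, where the gene had only 52 to 80 reads. For Tspan4 the transcript of 1323 bases held 73.5%, 83.0% and 74.4% in BALB/c against 71.6%, 66.03% and 57.5% in C57BL/6 libraries. Both differences reached p = 0.1 in a two-sided exact permutation test, the smallest that 3 against 3 libraries allow, and 0.35 after Benjamini-Hochberg adjustment over the 7 genes. The 4 Itgal transcripts that differ by a few bases in length (5219 to 5225 bases) traded shares between libraries of one strain, so that one of them held 51.3%, 34.0% and 0% in S9, S10 and S11. The division of reads among such near-identical transcripts was not used further.

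Several of the genes are neighbours. On chromosome 7 of GRCm39, Itgal (126895432 to 126934320, forward strand) is followed by Itgam (127661808 to 127717753), Itgax (127728668 to 127749829) and Itgad (127753548 to 127822988), all on the forward strand. In this stretch Itgax was 4.64-fold higher in C57BL/6 cells and Itgal 2.73-fold, whereas Itgam and Itgad, with gaps of 10.9 kb and 3.7 kb to Itgax, stayed at the lower limit. Itgax and Itgad share sequence, 10.4% of the words of 31 bases in Itgax, the closest relation found for a called member. Among the others, Itgam shares 65.0% of its words with Gm49368 and Itga10 31.8% with Gm42957. Whether reads were divided between these genes was not tested. On chromosome 6 Tspan9 (127938349 to 128136217, reverse strand) lies 7.4 kb from Tspan11, which had no reads, and Cd9 (125437210 to 125471778, reverse strand) lies 2392.8 kb from Tspan11 on its other side. On chromosome 10 Itgb2 (77366086 to 77401542), Tspan8 (115652737 to 115685798), Cd63 (128731528 to 128748709) and Itga7 (128769621 to 128794169) lie on the forward strand, and Cd63 and Itga7, both abundant, are 20.9 kb apart. Itga6 lies on chromosome 2 (71575960 to 71689757, forward strand). All 53 members are annotated as protein-coding by GENCODE.

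The genes around the members were described by 3 lists, with family and similarly named genes outside the rule given after them. Of 40 genes of integrin activation and the adhesion complex, 35 were tested, of which 2 were called higher in C57BL/6 cells and 1 was higher in BALB/c cells. The called share was 8.57%, beside 13.3% of all genes. Tln1, the talin that activates integrins, was at 977 ± 131 and 1234 ± 52.5 CPM (log2 fold change 0.34, adjusted p = 0.00776 in edgeR), and Fermt3, the kindlin of blood cells, at 349 ± 0.228 and 363 ± 6.23 CPM (log2 fold change 0.06, adjusted p = 0.169 in edgeR). The called genes were all at low levels. Parvb, a parvin, measured 0.534, 0.604 and 0.426 CPM in BALB/c against 4.19, 4.69 and 4.83 CPM in C57BL/6 libraries, or 3.14 on the log2 scale (adjusted p = 1.25e-06 in edgeR). Actn1, an actinin, had a log2 fold change of 2.27, and Tln2, the second talin, had 20 to 23 reads in a BALB/c library and 2 in each C57BL/6 library.

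Of 26 integrin ligands, 12 were tested, of which 3 were called higher in C57BL/6 cells and 1 was higher in BALB/c cells. These made up 33.3% of the tested ligands, beside 13.3% of all genes. Lama5, a laminin chain recognised by alpha 3 and alpha 6 integrins, measured 169, 107 and 109 CPM in BALB/c against 315, 295 and 278 CPM in C57BL/6 libraries, 1.21 on the log2 scale (SE 0.16, edgeR adjusted p = 0.000181). Nid1, a basement membrane protein that binds laminin, rose from 0.0965 ± 0.0547 to 1.23 ± 0.0444 CPM, and Icam4, a ligand of leukocyte integrins, from 0.555 ± 0.248 to 1.54 ± 0.382 CPM, with log2 fold changes of 3.56 and 1.44. Spp1, which encodes osteopontin, a ligand of alpha v integrins, went the other way, at 68.6, 68.1 and 75.8 CPM in BALB/c against 4.26, 5.51 and 7.40 CPM in C57BL/6 libraries, -3.62 on the log2 scale (SE 0.14, edgeR adjusted p = 9.51e-08).

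Of 20 partners of tetraspanins, 17 were tested, of which 2 were called higher in C57BL/6 cells and 1 was higher in BALB/c cells. Called genes were thus 17.6% of the tested partners, beside 13.3% of all genes. Emb, which encodes embigin, an immunoglobulin superfamily protein, measured 17.6, 11.7 and 11.8 CPM in BALB/c against 42.8, 48.2 and 51.2 CPM in C57BL/6 libraries (log2 fold change 1.79). Mmp14, a membrane protease, rose from 0.718 ± 0.302 to 3.27 ± 0.307 CPM (log2 fold change 2.16), and Epcam, an epithelial adhesion molecule, fell from 26.5 ± 2.58 to 11.9 ± 1.73 CPM (log2 fold change -1.15). Igsf8, an immunoglobulin superfamily partner of CD9 and CD81, was at 31.8, 33.5 and 31.8 CPM in BALB/c against 61.8, 63.02 and 65.7 CPM in C57BL/6 libraries. Its log2 fold change of 0.97 (adjusted p = 2.47e-07 in edgeR) ended just under the 2-fold criterion. Over the 3 lists together, 7 of 64 tested genes were called higher in C57BL/6 and 3 in BALB/c, in all 15.6%, beside 13.3% of all genes. Of 4 tetraspanin family genes outside the rule, 2 were tested and lower in C57BL/6. Upk1a, with 4 to 24 reads in a library, was called (log2 fold change -1.55, edgeR adjusted p = 0.00929), and Rom1 was not (-0.78, edgeR adjusted p = 0.00526). Of 4 integrin-named genes outside the rule, 2 were tested. Itgb3bp was lower in C57BL/6 by less than 2-fold (-0.49, edgeR adjusted p = 0.0028), and Itgb1bp1 did not pass (-0.12, edgeR adjusted p = 0.0568).

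**Figure D5:**
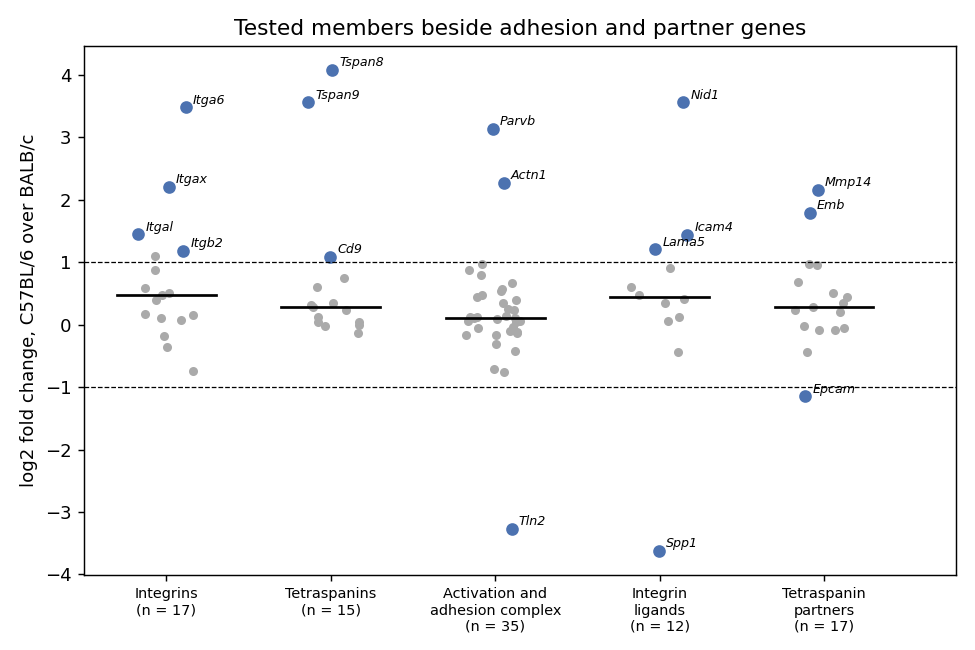
Log2 fold change between strains (C57BL/6 relative to BALB/c) for the tested integrins, tetraspanins and 3 lists of related genes, one point per gene, with called genes in blue and named and all others in grey, the median of each group as a black line and dashed lines at a 2-fold change. Tspan8 at 4.08 is the highest point and Spp1 at -3.62 the lowest, and no tested member lies beyond the lower dashed line. Tetraspanin family genes outside the rule are not drawn.

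Because several members also mark other blood cells, marker lists were read beside them. The 10 mast cell genes summed to between 37640 and 42550 TPM in a library, with Kit at 1766 ± 125 and 1947 ± 26.3 CPM and Fcer1a between 5253 and 5619 TPM. Levels differed widely within this list, and Hdc, the enzyme that makes histamine, was at only 1.501 ± 0.360 and 3.01 ± 0.408 TPM. Tpsb2 and Hdc were called higher in C57BL/6, with log2 fold changes of 2.32 and 1.19, while Cma1 and Mitf were lower there by less than 2-fold, at -0.43 and -0.23 (adjusted p of 0.00107 and 0.00124 in edgeR). Ms4a2, Kit and Fcer1a were higher in C57BL/6 by less than 2-fold, at 0.25, 0.14 and 0.13 (adjusted p of 0.000256, 0.038 and 0.0127 in edgeR). At an adjusted p under 0.05, 5 of the 10 genes were higher and 2 lower, beside 52.9% of all genes in either direction. In bulk RNA, fewer cells of a type and less RNA per cell cannot be told apart. Beside Itga2b and Tspan9, the list of 9 megakaryocyte and platelet genes summed to between 168 and 194 TPM in BALB/c and between 142 and 156 TPM in C57BL/6 libraries, nearly all of it from Gp1ba and Vwf, while Ppbp, Gp9 and Treml1 had no reads in any library. Of this list, Vwf was higher in C57BL/6 (log2 fold change 1.17) and Gp1bb, with 1 to 30 reads in a library, higher in BALB/c (-1.89). Gp1ba, which gave most of the sum at 168 ± 13.5 and 118 ± 6.97 TPM, was lower in C57BL/6 by less than 2-fold (-0.33, adjusted p = 0.000846 in edgeR). Beside Itgax, Itgal and Itgb2, all 6 dendritic cell genes had at most 5 reads in a library, and no neutrophil gene had more than 4. The 8 macrophage genes summed to between 0.936 and 1.77 TPM in BALB/c and between 8.34 and 9.72 TPM in C57BL/6 libraries. Adgre1 and Cd68 rose in that list, with log2 fold changes of 4.93 and 2.01, while Csf1r, C1qa, C1qb and C1qc had no reads. In the BALB/c libraries Adgre1 had only 16, 0 and 16 reads and Cd68 36, 21 and 34. The 7 basophil genes summed to between 515 and 529.7 TPM in BALB/c and between 639.7 and 668 TPM in C57BL/6 libraries, and Mcpt8, Prss34, Ccl9 and Cebpa were called higher in C57BL/6, with log2 fold changes between 1.12 and 6.53. In a BALB/c library Prss34 had only 1 to 8 reads, Ccl9 5 to 13 and Cebpa 2 to 5, so the size of these fold changes rests on very low counts. In the same list Il18r1 was lower in C57BL/6 (log2 fold change -0.54, adjusted p = 0.00415 in edgeR), and Cd200r3, which gave much of the sum at 339.0 ± 5.20 and 286 ± 4.598 TPM, did not pass the test (log2 fold change -0.07, adjusted p = 0.154 in edgeR). Ms4a3 was higher in C57BL/6 by just under 2-fold (0.99, adjusted p = 0.0024 in edgeR). At an adjusted p under 0.05, 5 of the 7 basophil genes were higher and 1 lower, beside 52.9% of all genes in either direction. The part of macrophage or basophil genes in the differences of Itgax, Itgal, Itgb2, Itga6, Tspan8 and Tspan9 was not tested. B cell, stromal and eosinophil lists had at most 6, 1 and 15 reads for any gene in a library, and the T or NK cell list had 1 tested gene, which was not called. The erythroid list had 2 tested genes, Hbb-bt higher in C57BL/6 and Klf1 higher in BALB/c. Hbb-bt had no reads in any BALB/c library and 160 to 214 in a C57BL/6 library. What lies behind this absence was not tested.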

How the data were processed

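RNA of BMMCs was sequenced from stranded mRNA libraries read at both ends, 3 per strain. The authors checked reads with FastQC (0.11.5) and quantified transcripts with Salmon (0.8.2); the methods name GRCm39 transcripts, while the tables list RefSeq names. The deposited values are expected counts (estimated reads per transcript, not whole) and TPM, together with transcript lengths. Names without version were matched to symbols through a RefSeq table of GRCm38.p6 (106440 of 129698 transcripts, 82.1%), and values were summed by gene. Summed counts were rounded and fitted in edgeR 4.0.16 (R 4.3.3) with TMM, filterByExpr at a minimum of 10 counts, and strain as the sole term. TMM factors lay between 0.940 and 1.05, and the biological coefficient of variation was 0.0665. Replicate libraries differed by more than counting noise (chi-square over its degrees of freedom, 6.6 to 13.6). 

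Alternatives were DESeq2 1.42.0 with and without a transcript length offset, DESeq2 size factors or plain library sizes in edgeR, 2 other filters, unmatched transcripts kept, limma 3.58.1 on TPM with pseudocounts of 1 and 0.1 before log2, a test against a 2-fold change, and each library left out. On simulated data with 200 genes changed 4-fold, edgeR recovered 198 with 2 false calls among 12324 genes tested, DESeq2 197 with 0 among 12461, and limma 165 with 2 among 10623. Named were members past both criteria or at 10 TPM or more in a strain, other members by range or with values, and called genes of the lists with Tln1, Fermt3 and Kit. Igsf8, Itgb3, Itga9, Cd81, Rom1, Itgb3bp, Itgb1bp1 and the marker genes other than Kit were added after their values were seen. Shared words of 31 bases were counted in GENCODE transcripts of GRCm39, a step chosen, like the printed promoters and motifs, after the data were seen. Members and lists were chosen with earlier results of these data known. The values of one marker gene are not reported here. Permutation tests used scipy 1.17.1. No paired analysis was possible, since library numbers are not shared between strains.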

Additional observations from a re-analysis of the deposited data

Results flagged for a closer look

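Transcripts whose names matched no gene symbol, which entered none of the comparisons above, held up to 3.12% of the reads of a library (2.69% in the lowest), spread over 9002 of 23258 such transcripts. They were singled out because they hold signal outside the main measurement. Keeping them as features of their own left all 7 called members called and the count of members at an adjusted p under 0.05 at 18 in edgeR.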

How the results depend on the processing

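The 5 members Tspan8, Tspan9, Itga6, Itgax and Itgal were called in every alternative, with log2 fold changes between 3.49 and 4.19, 1.76 and 3.67, 1.55 and 3.64, 1.75 and 2.25, and 1.02 and 1.58, the lowest of each on log2(TPM + 1), a scale that compresses low levels. Cd9 lost its call with plain library sizes, on both TPM scales and in the test against a 2-fold change, and Itgb2 in that test. The number of called members was 8 in both DESeq2 fits (with Cd81), 10 without a filter, 6 with plain library sizes, 5 in limma on either TPM scale, where 24 members were tested, and in the test against a 2-fold change, and from 7 to 8 on leaving out single libraries (8 without library S9, with Itgb3). The count of all called genes was 1017 with at least 10 counts in every library, 798 on log2(TPM + 1) and 1086 on log2(TPM + 0.1), against 1653, and that of the adhesion and partner lists 6 with the same filter and 5 on log2(TPM + 1), against 10, where fewer genes were tested.

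Directions turned for some members that differed by less than 2-fold. With plain library sizes log2 fold changes became -0.02 for Cd82, -0.04 for Itga7 and -0.09 for Tspan31. On log2(TPM + 1) and log2(TPM + 0.1) they became -0.06 and -0.06 for Cd82, -0.06 and -0.06 for Itga7, -0.12 and -0.13 for Tspan31, and -0.0033 and -0.0033 for Itgb7. Tspan13 became 0.03 without library S10 and Cd151 0.02 without library S12. On the TPM scales the all-gene median shifted by -0.17 and -0.18, so small differences depend on the scaling. Shares of main transcripts moved by less than the replicate spread when counts replaced TPM. Sums with the pseudogenes Cd9-ps and Cd63-ps were not run, since no transcript was matched to them. No paired analysis was possible because the strains share no library number.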
